A study of Cricetulus griseus with 24 samples.

Results

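The genes described here are 9 members of the cytokine signalling brake and receptor families: the SOCS genes Socs2, Socs3, Socs5 and Socs6, the transcription factor gene Stat3, the receptor genes Il6st, Lifr and Osmr of the gp130 family, and the IL-13 decoy receptor gene Il13ra2. They are a set of named genes, picked with earlier results of these data known. Of the 9, 8 had a row among the 26776 gene names shared by both count tables, and Socs2 was not analysed here. Lifr fell under the filter on low counts in both fits, so 7 members were tested. RNA was sequenced from 24 libraries of LR73 cells, a hamster line derived from Chinese hamster ovary cells that serves as a model phagocyte. In the first experiment, LR73 phagocytes were given apoptotic cells together with cytochalasin D, apoptotic cells alone, cytochalasin D alone or nothing (control), with 4 biological replicates each. Cytochalasin D blocks actin filament growth and thereby uptake, and the apoptotic cells were human Jurkat T lymphoma cells exposed to ultraviolet C light. In the second experiment, Slc12a2-deficient and wildtype LR73 phagocytes both received apoptotic Jurkat cells for 2 h, and those that had taken up corpses were sorted by the acid-sensitive dye CypHer5E, with 4 libraries each. Slc12a2 encodes the sodium, potassium and chloride importer NKCC1, and both sorted groups carried corpses, so that experiment held no corpse-free group. How Slc12a2 was made deficient, and whether the deficient line is 1 clone, is not given in the sources used here.

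Cytokines of the interleukin-6 family act through receptor complexes that share gp130, the product of Il6st, paired with a partner such as LIFR or OSMR. Ligand binding activates Janus kinases, which phosphorylate STAT3, and STAT3 switches on its targets, among them Socs3. The SOCS3 protein then binds gp130 and its Janus kinases and ends the signal, so Socs3 RNA is often read as a trace of recent signalling through these receptors. SOCS2 is best known for damping growth hormone signalling, SOCS5 for damping EGF receptor and interleukin-4 signalling, and SOCS6 for acting on receptor tyrosine kinases such as KIT. The protein of Il13ra2 binds IL-13 tightly and lacks the signalling tail of other cytokine receptors, hence the name decoy receptor. Fibroblasts are known to respond to several ligands of this family, with oncostatin M and leukaemia inhibitory factor among them.

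Total counts per library lay between 8272232 and 18911353 in the first experiment and between 22758587 and 28450594 in the second. Levels are CPM, counts divided by the library total after TMM scaling, and a floor of 3 counts corresponded to 0.108 to 0.368 CPM. The gene named in the labels of the second experiment was lower but still detected in deficient libraries: Slc12a2 averaged 24.7 ± 1.59 CPM in deficient libraries and 96.8 ± 5.41 CPM in wildtype libraries (SD, n = 4 each). The labels call the cells fibroblasts. Of 14 measured fibroblast markers, 8 or 9 reached 1 CPM in each group, with Vim and Fn1 high and Col1a1, Col1a2 and Thy1 at or near 0. Of the macrophage and epithelial markers, at most 1 of 6 and 1 of 5 reached 1 CPM in any group. On the third principal component of the first experiment, which held 10.4% of the variance, 3 libraries lay at the ends, namely control 4, cytochalasin D 1 and apoptotic cells plus cytochalasin D 4. Results that change without these 3 are given with both values below.

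Per base of exon, the decoy receptor and gp130 were the most abundant members in control and deficient libraries, gp130 and Stat3 were in wildtype sorted libraries, and Lifr was close to absent in all 3 groups. In control libraries the mean level per exon length and library depth (RPKM) was 75.5 for Il13ra2, 32.5 for Il6st, 23.8 for Stat3, 5.61 for Socs6, 5.21 for Socs5, 3.88 for Socs3, 3.38 for Osmr and 0.0795 for Lifr. In Slc12a2-deficient libraries the order was Il13ra2 at 54.3 RPKM, Il6st at 35.3, Stat3 at 18.1, Socs5 at 11.8, Socs6 at 9.02, Osmr at 4.33, Socs3 at 1.23 and Lifr at 0.0135 RPKM. In wildtype sorted libraries Il6st led with 41.6 RPKM, followed by Stat3 with 19.2, Il13ra2 with 16.7, Socs6 with 8.22, Osmr with 4.48, Socs3 with 2.52, Socs5 with 1.84 and Lifr with 0.0805 RPKM. Socs5 thus ranked above Socs6 in the deficient cells and next to last in the wildtype cells. The other IL-13 receptor chain gene, Il13ra1, had no count in any library of the first experiment and 1 count in all in the second.

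**Figure D1:**
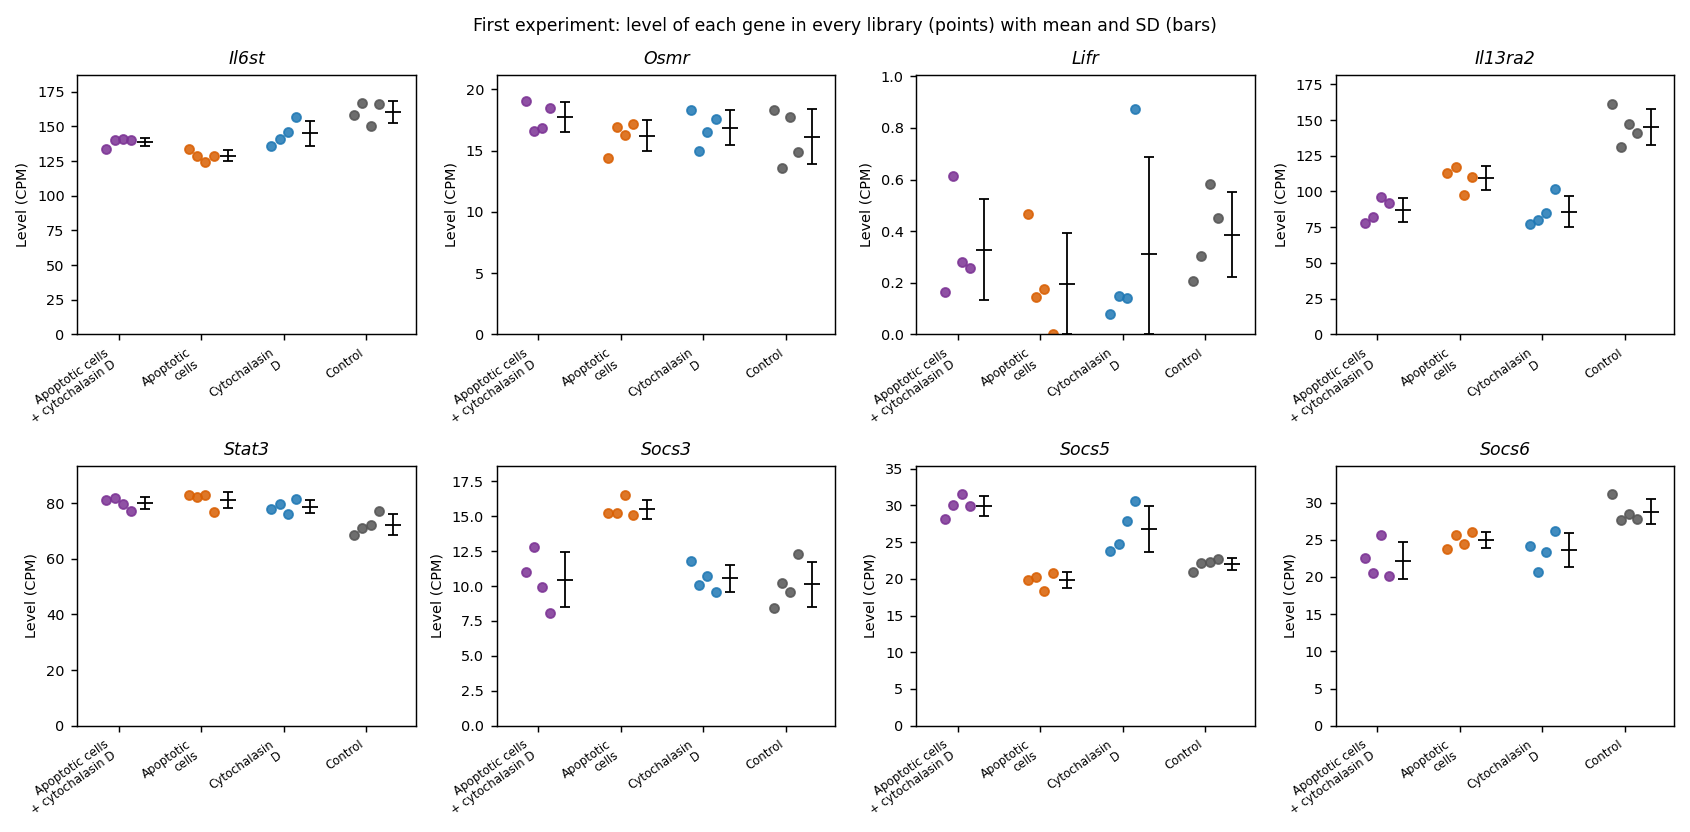
Level of 8 genes in the first experiment (vertical axes, CPM, starting at 0). Points are single libraries and bars are the mean and SD of 4 libraries, clipped at 0 for Lifr. The 4 Socs3 values with apoptotic cells, 15.1 to 16.5 CPM, lie above every other library, and Il13ra2 is highest in control libraries, at 131 to 161 CPM.

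Apoptotic cells against control asks what corpses do to phagocytes that can take them up. Socs3 rose 1.54-fold, the gp130 gene Il6st and the decoy receptor Il13ra2 fell, and Stat3 rose slightly. In all, 4 of the 7 tested members passed an adjusted p of 0.05 (edgeR quasi-likelihood test with Benjamini-Hochberg adjustment over all genes), 2 higher and 2 lower, while 13.7% of the 13106 genes tested passed. By direction, 6.97% of all genes were called higher and 6.68% lower. The members' median log2 fold change was -0.15, against 0.003 over all tested genes.

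Among the receptors, Il6st stood at 134, 129, 124 and 129 CPM with apoptotic cells, against 158, 167, 150 and 166 CPM in control libraries. The groups did not overlap. Its log2 fold change was -0.31 ± 0.05 (SE), a 1.24-fold lower level, with an adjusted p of 0.000109 in edgeR. Il13ra2 stood at 113, 117, 97.7 and 110 CPM with apoptotic cells, against 161, 131, 147 and 141 CPM in control libraries. Again every corpse-fed library was below every control library, and the log2 fold change was -0.41 ± 0.08 (SE, adjusted p = 0.00154 in edgeR). Osmr, whose product pairs with gp130 to bind oncostatin M, had mean levels of 16.2 ± 1.27 CPM with apoptotic cells and 16.1 ± 2.21 CPM in control libraries (SD, n = 4 each). The log2 fold change of Osmr was 0.01 ± 0.10 (SE), its groups overlapped, and its edgeR adjusted p was 0.981. Lifr was listed with 6, 2, 3 and 0 counts with apoptotic cells, against 4, 5, 8 and 5 counts in control libraries, too few to compare at this depth; the 0 allows up to 0.174 CPM.

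Stat3 had 82.9, 82.1, 83.0 and 76.9 CPM with apoptotic cells, against 68.5, 71.0, 72.3 and 77.3 CPM in control libraries. The fourth library of each group broke the separation, with the lowest corpse-fed value just under the highest control value. The log2 difference was 0.17 ± 0.05 (SE, adjusted p = 0.0211 in edgeR). That call was lost without apoptotic 1 (adjusted p = 0.0505 in edgeR), without apoptotic 3 (0.0669), without control 1 (0.0854) and without control 2 (0.0523).

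Socs3 had 15.2, 15.2, 16.5 and 15.1 CPM with apoptotic cells, against 8.46, 10.2, 9.56 and 12.3 CPM in control libraries. The corpse-fed libraries were close to each other and all above the control libraries. On the log2 scale Socs3 was higher by 0.63 ± 0.12 (SE, adjusted p = 0.00173 in edgeR). Without the 3 libraries that stood apart it was 0.72 ± 0.11 (adjusted p = 0.00017 in edgeR). Socs5 averaged 19.8 ± 1.05 CPM with apoptotic cells and 22 ± 0.796 CPM in control libraries, and Socs6 averaged 25 ± 1.09 CPM and 28.8 ± 1.64 CPM in the same order (SD, n = 4 each). Neither passed (edgeR adjusted p of 0.25 and 0.108), although for both the corpse-fed libraries lay below the control libraries without overlap. In all, 5 of the 7 tested members had groups without overlap, against 19.6% of all tested genes.

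Around these members, 77 genes on 10 lists of ligands, receptors, kinases, STATs, brakes, ligase partners and targets were tested. Of these, 9 were higher and 5 lower with apoptotic cells, against 6.97% higher and 6.68% lower among all genes. Without some library, 5 of these 14 calls were lost. Of 6 tested ligand genes of the gp130 family, 2 rose. Il11, the interleukin-11 gene, had 4.35, 8.57, 5.58 and 4.46 CPM with apoptotic cells, against 1.87, 1.46, 2.33 and 1.44 CPM in control libraries, a 3.21-fold difference (adjusted p = 6.87e-05 in edgeR). Clcf1, which encodes a ligand of the ciliary neurotrophic factor receptor, rose 1.61-fold, with 16.7 ± 1.47 CPM against 10.4 ± 0.777 CPM in control libraries (SD, n = 4 each, adjusted p = 0.000452 in edgeR). Cntfr, the gene of that receptor, had 2 counts in all with cytochalasin D alone and 0 in every other group of both experiments. Every corpse-fed library exceeded every control library for both ligands. Lif averaged 39.6 ± 3.34 CPM with apoptotic cells and 37.8 ± 3.61 CPM in control libraries and was not called (adjusted p = 0.623 in edgeR). Among 19 tested STAT3 targets, 3 were higher and 3 lower. Of the lower ones, Icam1 averaged 281 ± 14.3 CPM with apoptotic cells and 320 ± 22.1 CPM in control libraries. Irf1 averaged 13 ± 1.41 CPM and 17.4 ± 2.02 CPM in the same order (SD, n = 4 each). Both calls held in 19 of 19 alternatives. The transcription factor gene Cebpd, with 8.58 ± 1.56 CPM against 2 ± 0.986 CPM, was 4.28-fold higher (SD, n = 4 each, adjusted p = 0.00163 in edgeR), and Fos was 3.24-fold higher at a low level of 1.48 ± 0.212 CPM against 0.468 ± 0.171 CPM (adjusted p = 0.00228 in edgeR). The Janus kinase gene Jak2 fell 1.21-fold, with 90.2 ± 4.11 CPM against 109 ± 2.81 CPM (adjusted p = 0.00139 in edgeR). None of the 3 other tested SOCS genes, Socs4, Socs7 and Cish, passed, with edgeR adjusted p between 0.172 and 0.704.

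Some T cell genes that were near 0 in control libraries were counted with apoptotic cells. A list of 20 T cell genes summed to 53 ± 1.7 ppm of counts of counts (50.6 to 54.6) with apoptotic cells and to 45.2 ± 1.68 (43.4 to 47) in control libraries, with an exact two-sided permutation p of 0.0286 (n = 4 each), the smallest this design allows. Lck averaged 3.2 ± 0.276 CPM with apoptotic cells and 0.0259 ± 0.0519 CPM in control libraries, and Zap70 3.35 ± 1.41 CPM and 0.013 ± 0.0259 CPM in the same order. With apoptotic cells, 7 of the 20 genes reached 1 CPM and Cd2, Cd247, Cd3g, Cd5 and Cd6 had no count; in control libraries 4 reached 1 CPM and 13 had no count. Those 4, expressed in libraries without corpses, made up most of the sum: Tcf7 stood at 23 ± 0.975 CPM with apoptotic cells and 23.7 ± 0.843 CPM in control libraries, Lat at 11.1 ± 1.37 and 11 ± 1.19 CPM, Gata3 at 7.67 ± 0.487 and 8.33 ± 0.353 CPM and Cd28 at 1.06 ± 0.304 and 1.3 ± 0.204 CPM. Of these, Tcf7, Gata3 and Cd28 had lower means with apoptotic cells. TMM scaling takes out a shift that most genes share, and the median log2 fold change over all tested genes was 0.003. These bulk libraries can mix RNA of phagocytes and corpses. Neither the species of the T cell reads nor the part of Jurkat RNA in the members' changes was tested.

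**Figure D2:**
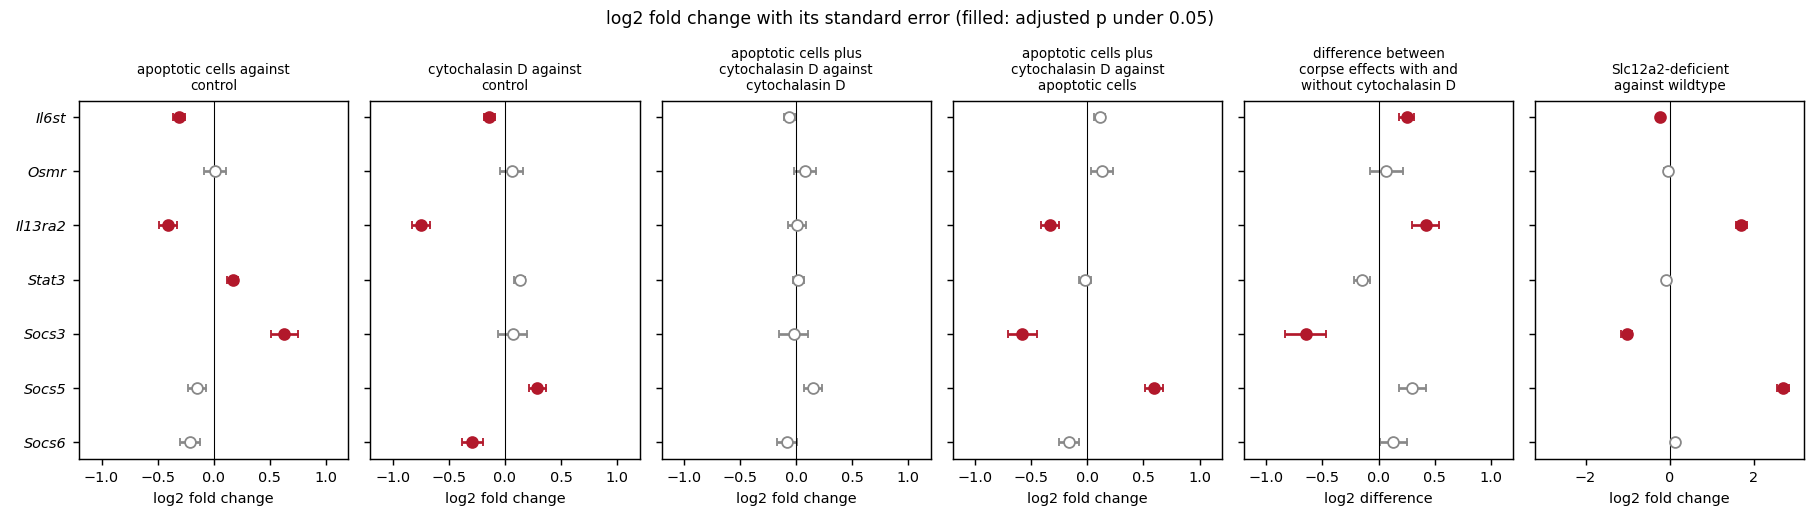
log2 fold change (horizontal axes, with its SE) of the 7 tested genes in 6 comparisons, each named above its panel with the group on top of the fold first. The fifth panel shows a difference between fold changes, and the last panel has a wider axis. Filled points passed an adjusted p of 0.05: 4 genes passed in the first, second and last panels, and none passed for corpses given under cytochalasin D.

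Cytochalasin D against control asks what the actin drug does without corpses. Il13ra2 fell 1.68-fold, Socs6 and Il6st fell by less, and Socs5 rose 1.22-fold. Here too 4 of the 7 tested members passed, 1 higher and 3 lower, while 26.3% of all genes passed (13.5% higher and 12.8% lower). The members' median log2 fold change was 0.06, against 0.009 over all tested genes.

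Il13ra2 had 77.1, 80.1, 84.7 and 102 CPM with cytochalasin D, all below the control range of 131 to 161 CPM. Its log2 fold change was -0.75 ± 0.08 (SE, adjusted p = 1.75e-07 in edgeR). Il6st had 136, 141, 146 and 157 CPM with cytochalasin D, and its highest value lay inside the control range of 150 to 167 CPM. Its log2 fold change was -0.14 ± 0.05 (SE, adjusted p = 0.0273 in edgeR), and the call was lost without the 3 libraries that stood apart (-0.099 ± 0.05, adjusted p = 0.211 in edgeR). It was also lost without control 2 (adjusted p = 0.0912 in edgeR), control 4 (0.0797), cytochalasin D 1 (0.0751), cytochalasin D 2 (0.0589) or cytochalasin D 3 (0.0508).

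Socs5 had 23.8, 24.7, 27.9 and 30.6 CPM with cytochalasin D, against 20.9, 22.1, 22.3 and 22.7 CPM in control libraries. The groups did not overlap, and the log2 fold change was 0.29 ± 0.08 (SE, adjusted p = 0.0106 in edgeR; 0.0583 without cytochalasin D 4). Socs6 had 24.2, 20.7, 23.3 and 26.2 CPM with cytochalasin D, against 31.2, 27.7, 28.5 and 27.8 CPM in control libraries. Every treated library was below every control library, with a log2 fold change of -0.29 ± 0.09 (SE, adjusted p = 0.0142 in edgeR; 0.0625 without control 1 and 0.0541 without cytochalasin D 2). Without cytochalasin D 2, 2 members were called. Socs5, Socs6 and Il13ra2, 3 of the 7 tested members, had groups without overlap, against 24.3% of all tested genes. Socs3 averaged 10.6 ± 0.971 CPM with cytochalasin D and 10.2 ± 1.63 CPM in control libraries (SD, n = 4 each), Stat3 78.8 ± 2.34 CPM and 72.3 ± 3.69 CPM, and Osmr 16.8 ± 1.45 CPM and 16.1 ± 2.21 CPM. None of these 3 passed, with edgeR adjusted p of 0.766, 0.0576 and 0.741. Stat3 was called without the 3 libraries that stood apart (adjusted p = 0.0375 in edgeR), without control 4 alone (0.0247), with the length trend removed (0.0365) and by limma-voom (0.0424).

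Of the 77 listed neighbours, 17 were higher and 11 lower with cytochalasin D, against 13.5% higher and 12.8% lower among all genes, and 6 of the 28 calls were lost without some library. The ligand genes Il11 and Lif rose 2.19-fold and 1.27-fold (edgeR adjusted p of 0.00167 and 0.00142), with 3.95 ± 1.02 CPM against 1.77 ± 0.423 CPM in control libraries for Il11 and 48 ± 4.12 CPM against 37.8 ± 3.61 CPM for Lif (SD, n = 4 each). Il31ra, whose product forms the interleukin-31 receptor with OSMR, rose 2.09-fold to 4.59 ± 0.98 CPM, against 2.15 ± 0.585 CPM in control libraries (adjusted p = 0.00121 in edgeR). Of the 5 tested other STAT genes, 4 were called higher, but the call of Stat6 was lost in 11 of 19 alternatives (highest adjusted p = 0.269) and that of Stat5a in 3 of 19 (highest adjusted p = 0.0933). The widest of these ratios was that of Stat5b, 2.95-fold higher at 2.76 ± 0.584 CPM against 0.952 ± 0.221 CPM (adjusted p = 5.84e-05 in edgeR). Socs7, a further SOCS family brake, was 1.22-fold higher, with 83.9 ± 3.86 CPM against 69.1 ± 4.55 CPM (adjusted p = 0.000552 in edgeR). Of the 19 STAT3 targets, 6 were higher and 3 lower. Tnfaip3, a brake on NF-kappaB signalling, was 2.07-fold higher (133 ± 4.2 CPM against 64.7 ± 5.13 CPM, adjusted p = 5.68e-13 in edgeR), and Klf4 was 1.87-fold lower (87 ± 5.63 CPM against 163 ± 7.89 CPM, adjusted p = 1.71e-09 in edgeR). Il7r, the interleukin-7 receptor gene, stood at 3.38 ± 0.807 CPM against a control level near the floor, 0.224 ± 0.183 CPM or 14 counts in all. Its log2 fold change was 3.82 (adjusted p = 4.65e-07 in edgeR), and 4.54 without control 2. The T cell list summed to 40.6 ± 3.24 ppm of counts with cytochalasin D and 45.2 ± 1.68 in control libraries (n = 4 each, exact permutation p = 0.0571).

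Apoptotic cells plus cytochalasin D against cytochalasin D asks what corpses do when uptake is blocked. None of the 7 tested members passed, against 8.61% of all genes (4.82% higher and 3.79% lower), and none had an unadjusted p under 0.05 (edgeR quasi-likelihood test); DESeq2 and limma-voom called none either. The lowest unadjusted p was that of Socs5, with 28.1, 30.1, 31.5 and 29.9 CPM with corpses and the drug, against 23.8, 24.7, 27.9 and 30.6 CPM with the drug alone (log2 fold change 0.15 ± 0.08 SE, adjusted p = 0.272 in edgeR). These groups overlapped through the fourth drug library. Socs3 had 11.0, 12.8, 9.97 and 8.07 CPM with corpses and the drug, against 11.8, 10.1, 10.7 and 9.59 CPM with the drug alone, wholly overlapping ranges. Il13ra2 had 77.8, 82.1, 96.0 and 91.6 CPM with corpses and the drug, inside the range of the drug alone. Their log2 fold changes were -0.02 ± 0.13 and 0.01 ± 0.08 (SE), with edgeR adjusted p of 0.949 and 0.957. Il6st (139 ± 3.33 CPM against 145 ± 8.86 CPM), Stat3 (79.9 ± 2.22 CPM against 78.8 ± 2.34 CPM), Socs6 (22.2 ± 2.51 CPM against 23.6 ± 2.31 CPM) and Osmr (17.7 ± 1.19 CPM against 16.8 ± 1.45 CPM) overlapped as well (SD, n = 4 each). Groups without overlap were found for none of the 7 tested members and for 13.5% of all tested genes.

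The T cell list was nonetheless higher with corpses and the drug, and the source of these reads was not tested. The T cell list summed to 50.7 ± 2.16 ppm of counts (48.5 to 53.6) with corpses and the drug and to 40.6 ± 3.24 (36.7 to 44.1) with the drug alone (n = 4 each, exact permutation p = 0.0286), and Lck stood at 3.07 ± 0.824 CPM against no count in any library with the drug alone. Of the 77 listed neighbours, 8 were higher and 5 lower, against 4.82% higher and 3.79% lower among all genes. Of those called neighbours, 3 kept their call without each library in turn. One was Tnfaip3, 1.58-fold higher at 211 ± 13.4 CPM against 133 ± 4.2 CPM (SD, n = 4 each, adjusted p = 1.18e-08 in edgeR). The others were Icam1, lower at 264 ± 4.38 CPM against 335 ± 10.8 CPM, and Il1rl1, higher at 15.9 ± 1.4 CPM against 10.6 ± 1.17 CPM. Lif was 1.22-fold higher at 58.3 ± 1.06 CPM against 48 ± 4.12 CPM (adjusted p = 0.0176 in edgeR), a call lost without cytochalasin D 2 (0.0742 in edgeR). Il11 was also called higher, at 6.71 ± 0.832 CPM against 3.95 ± 1.02 CPM. Its log2 fold change was 0.59 to 0.94 over 19 alternatives, and its call was lost in 7 of them.

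The difference between the corpse effects with and without the drug was called for 3 of the 7 tested members, 2 higher and 1 lower, against 4.56% of all genes (3.03% higher and 1.53% lower). The corpse effect on Socs3 was lower under the drug by a log2 difference of -0.65 ± 0.18 (SE, adjusted p = 0.0418 in edgeR), while those on Il6st and Il13ra2, both negative without the drug, were nearer to 0 under it, by 0.25 ± 0.07 (0.0369) and 0.42 ± 0.12 (0.0395). All 3 calls were near the threshold and were lost without the 3 libraries that stood apart, at -0.59, 0.20 and 0.36 with edgeR adjusted p of 0.0992, 0.231 and 0.194. Leaving out each of the 16 libraries in turn kept the Socs3 call 5 times, that of Il6st 5 times and that of Il13ra2 4 times, with log2 differences between -0.74 and -0.54, 0.22 and 0.29, and 0.36 and 0.51. The calls of all 3 were lost without apoptotic 3, apoptotic 4, control 1, cytochalasin D 1, 2 or 3, or apoptotic cells plus cytochalasin D 3 or 4. Adjusted p for Socs3 then lay between 0.0639 and 0.105, for Il6st between 0.0588 and 0.0892 and for Il13ra2 between 0.0701 and 0.112 (edgeR). Without apoptotic 1, control 2, 3 or 4, or apoptotic cells plus cytochalasin D 2, 1 of the 3 was called, and without cytochalasin D 4 all 3 and Socs5 were. Socs5 had a log2 difference of 0.30 ± 0.12 (SE) that did not pass (adjusted p = 0.129 in edgeR; 0.0322 without cytochalasin D 4), and Stat3 one of -0.15 ± 0.07 (0.207).

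Apoptotic cells plus cytochalasin D against apoptotic cells asks what the drug does in phagocytes given corpses. Socs3 fell 1.5-fold, Il13ra2 fell 1.26-fold and Socs5 rose 1.51-fold. These 3 of 7 tested members passed, 1 higher and 2 lower, against 32.5% of all genes (16.4% higher and 16.1% lower). The members' share was near that of all genes.

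Socs3 stood at 8.07 to 12.8 CPM with the drug and corpses, against 15.1 to 16.5 CPM with corpses alone, without overlap (log2 fold change -0.58 ± 0.13 SE, adjusted p = 0.00105 in edgeR). Socs5 stood at 28.1 to 31.5 CPM with the drug and corpses, against 18.3 to 20.8 CPM with corpses alone, also without overlap (0.59 ± 0.08 SE, adjusted p = 5.96e-06 in edgeR). Il13ra2 stood at 77.8 to 96.0 CPM with the drug and corpses, against 97.7 to 117 CPM with corpses alone (-0.33 ± 0.08 SE, adjusted p = 0.00334 in edgeR). The gap between the Il13ra2 groups was narrow. These 3 of the 7 tested members had groups without overlap, against 32.1% of all tested genes. Il6st, Stat3, Socs6 and Osmr did not pass, with edgeR adjusted p of 0.0997, 0.764, 0.168 and 0.374. Without apoptotic cells plus cytochalasin D 3, Socs6 was called lower (log2 fold change -0.25, adjusted p = 0.0496 in edgeR). In the order of group means from low to high, Socs3 put control, apoptotic cells plus cytochalasin D and cytochalasin D together at 10.2, 10.5 and 10.6 CPM, with overlapping libraries, and apoptotic cells apart at 15.5 CPM. Socs5 ran from apoptotic cells at 19.8 CPM through control at 22 and cytochalasin D at 26.8 to apoptotic cells plus cytochalasin D at 29.9 CPM, and only the last 2 overlapped. Il13ra2 put both drug groups together at 86 and 86.9 CPM, apoptotic cells at 109 CPM and control at 145 CPM, with apoptotic cells overlapping cytochalasin D alone through its library at 102 CPM.

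Among the 77 listed neighbours, 19 were higher and 18 lower with the drug and corpses, against 16.4% higher and 16.1% lower among all genes, and 15 of the 37 calls were lost without some library. Lif was 1.47-fold higher at 58.3 ± 1.06 CPM against 39.6 ± 3.34 CPM with corpses alone (SD, n = 4 each, adjusted p = 3.47e-06 in edgeR), and Clcf1 was 1.39-fold lower at 12 ± 1.28 CPM against 16.7 ± 1.47 CPM (adjusted p = 0.00383 in edgeR). Il6r, the interleukin-6 receptor gene, was 1.55-fold lower at 3.33 ± 0.578 CPM against 5.17 ± 0.264 CPM (adjusted p = 0.00551 in edgeR). The kinase genes Jak3 and Tyk2 were 1.6-fold and 1.26-fold lower, and Jak1 was 1.1-fold higher (edgeR adjusted p of 0.000663, 0.00126 and 0.00798). Stat5b was 2.49-fold higher (4.04 ± 0.67 CPM against 1.61 ± 0.232 CPM, adjusted p = 0.000113 in edgeR). Among the STAT3 targets, 7 were higher and 5 lower, led by Tnfaip3, 2.91-fold higher (adjusted p = 2.9e-16 in edgeR), and Klf4, 2.11-fold lower (9.44e-11). The T cell list summed to 50.7 ± 2.16 ppm of counts with the drug and corpses and to 53 ± 1.7 with corpses alone (n = 4 each, exact permutation p = 0.171).

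**Figure D3:**
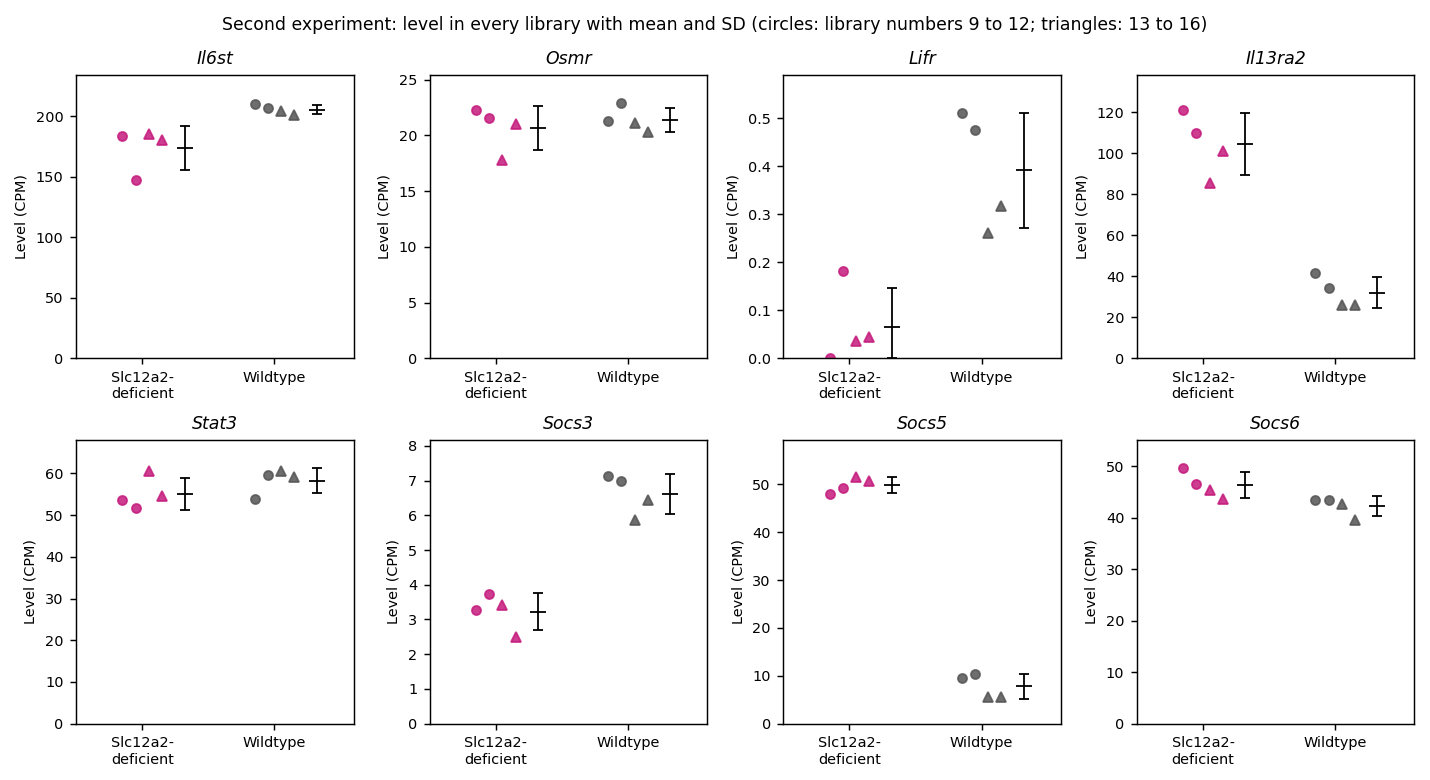
Level of 8 genes in the second experiment (vertical axes, CPM, starting at 0), Slc12a2-deficient left of wildtype. Points are single libraries, circles for library numbers 9 to 12 and triangles for 13 to 16, and bars are the mean and SD of 4 libraries, clipped at 0 for Lifr. Socs5 lies at 47.9 to 51.6 CPM in deficient libraries and at 5.48 to 10.4 CPM in wildtype libraries.

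Slc12a2-deficient against wildtype asks how corpse-bearing phagocytes differ when the chloride importer gene is deficient. Among the tested members, the widest difference of the study was here: Socs5 was 6.44-fold higher, and Il13ra2 was 3.25-fold higher. Socs3 was 2.03-fold lower and Il6st 1.18-fold lower, and Lifr was scarcely counted in either group. In all, 4 of the 7 tested members passed, 2 higher and 2 lower, against 42.5% of the 13050 genes tested (21.1% higher and 21.3% lower), so the count itself was near the share of all genes. The members' median log2 fold change was -0.05, against -0.002 over all tested genes.

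Il6st had 184, 147, 185 and 180 CPM in deficient libraries, against 210, 207, 204 and 201 CPM in wildtype libraries. The deficient libraries were all lower, the second of them by a wide margin. Its log2 fold change was -0.24 ± 0.06 (SE, adjusted p = 0.00646 in edgeR). Il13ra2 had 121, 110, 85.3 and 101 CPM in deficient libraries, against 41.7, 34.5, 25.9 and 26.1 CPM in wildtype libraries. The lowest deficient value was above the highest wildtype value, and the log2 fold change was 1.70 ± 0.13 (SE, adjusted p = 5.15e-08 in edgeR). Osmr did not pass, at 20.7 ± 1.99 CPM in deficient libraries and 21.4 ± 1.06 CPM in wildtype libraries (SD, n = 4 each, adjusted p = 0.61 in edgeR).

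Lifr, which sits on the same scaffold as Osmr in the files and shares no exon with it, had 0, 5, 1 and 1 counts in deficient libraries, against 13, 11, 7 and 8 counts in wildtype libraries. The groups did not overlap, though the levels, 0.0656 ± 0.0801 CPM in deficient libraries and 0.391 ± 0.12 CPM in wildtype libraries (SD, n = 4 each), were low, the deficient ones near or below the floor of 3 counts. With no filter on low counts the log2 fold change was -2.41 ± 0.57 (SE, adjusted p = 0.000745 in edgeR), a value that rests on 7 counts in deficient and 39 in wildtype libraries in all.

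Stat3 had 53.7, 51.7, 60.7 and 54.5 CPM in deficient libraries, against 53.8, 59.6, 60.7 and 59.1 CPM in wildtype libraries. The groups overlapped, and the log2 fold change of -0.08 ± 0.06 (SE) did not pass (adjusted p = 0.292 in edgeR).

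Socs3 had 3.28, 3.72, 3.41 and 2.49 CPM in deficient libraries, against 7.14, 7, 5.86 and 6.44 CPM in wildtype libraries. No library crossed over, and the log2 fold change was -1.02 ± 0.13 (SE, adjusted p = 8.13e-06 in edgeR). Socs5 had 47.9, 49.2, 51.6 and 50.7 CPM in deficient libraries, against 9.57, 10.4, 5.64 and 5.48 CPM in wildtype libraries. The deficient libraries lay close together, while the wildtype libraries split by library number. For Socs5 the log2 fold change was 2.69 ± 0.14 (SE, adjusted p = 8.02e-10 in edgeR). Library numbers in the titles ran from 9 to 16, and both groups had 2 libraries each among numbers 9 to 12 and among 13 to 16. Within the lower numbers the deficient mean of Socs5 was 4.85 times the wildtype mean, and within the higher numbers 9.19 times. For Il13ra2 these ratios were 3.03 and 3.58, for Socs3 0.494 and 0.48, and for Il6st 0.794 and 0.904. Socs6 had 49.6, 46.6, 45.4 and 43.7 CPM in deficient libraries, against 43.4, 43.4, 42.7 and 39.5 CPM in wildtype libraries. Its groups did not overlap, yet its log2 fold change of 0.13 ± 0.05 (SE) did not pass (adjusted p = 0.0611 in edgeR; 0.0289 with a block on library numbers and 0.0235 without deficient 4). In all, 5 of the 7 tested members had groups without overlap, against 39.6% of all tested genes.

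**Figure D4:**
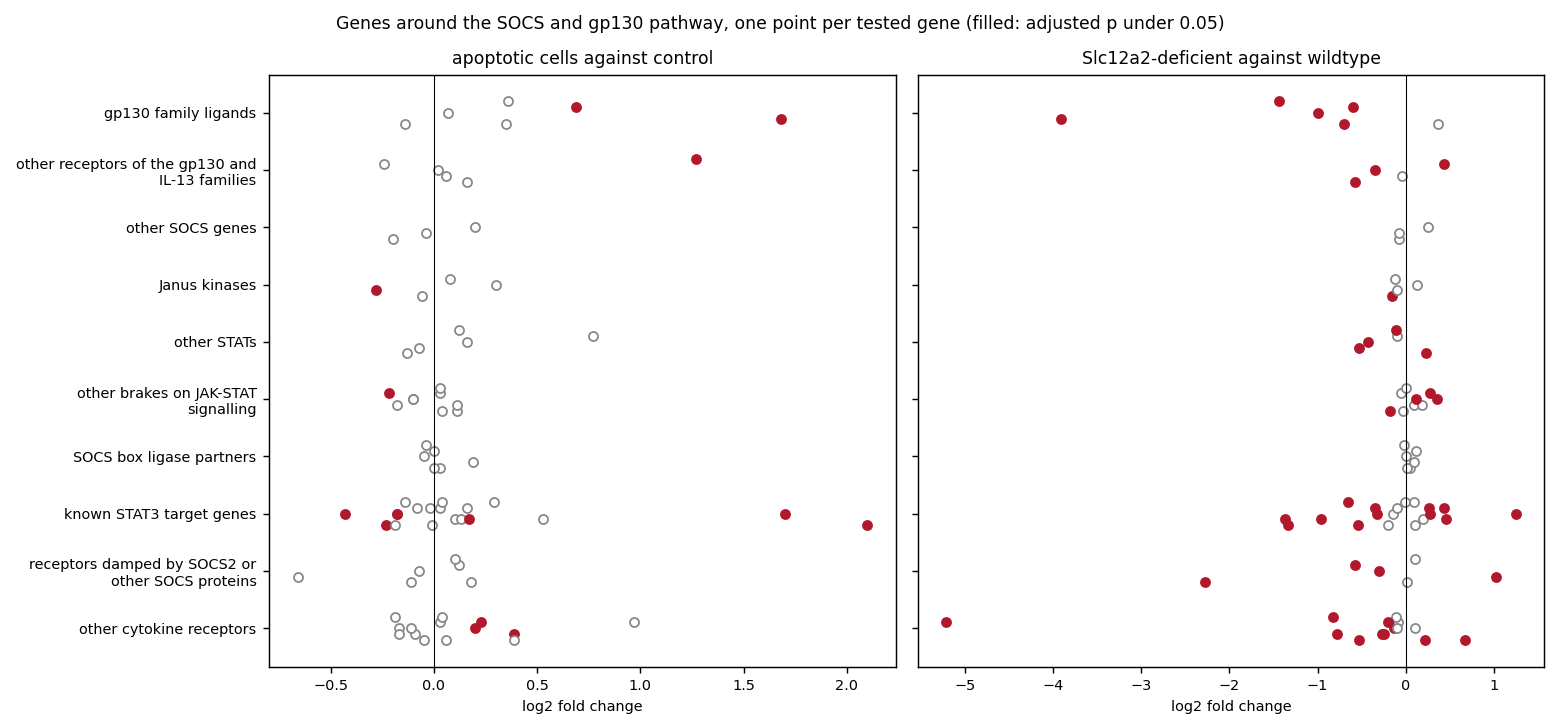
log2 fold change (horizontal axes) of each tested gene on 10 lists around the SOCS and gp130 genes, for apoptotic cells against control (left) and Slc12a2-deficient against wildtype (right), with different axis ranges. Filled points passed an adjusted p of 0.05; on the right, 5 of 6 ligand genes lie left of 0 and passed.

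Of the 76 neighbouring genes tested on the 10 lists, 13 were higher and 30 lower in the deficient cells, against 21.1% higher and 21.3% lower among all genes. Without some library, 11 of these 43 calls were lost, and the split between directions was not tested. Of 6 tested ligand genes of the gp130 family, 5 were lower and none higher (list median log2 fold change -0.85, against -0.002 over all genes). Il11 had 0.553, 0.765, 0.287 and 0.355 CPM in deficient libraries, against 6.91, 7.39, 7.81 and 7.75 CPM in wildtype libraries, a 15-fold difference (adjusted p = 2.35e-10 in edgeR). Lif, which encodes leukaemia inhibitory factor, had 59.7, 59.2, 47.1 and 41 CPM in deficient libraries, against 111, 114, 92.1 and 95.1 CPM in wildtype libraries, a 1.99-fold difference (adjusted p = 1.5e-06 in edgeR). For both, no deficient library reached a wildtype library. Cntf and Clcf1, both outside the naming rule and added after their values were seen, were 1.62-fold and 1.51-fold lower (edgeR adjusted p of 0.000623 and 0.00182). Cntf averaged 3.03 ± 0.319 CPM against 4.91 ± 0.761 CPM, and Clcf1 averaged 9.07 ± 1.95 CPM against 13.7 ± 1.66 CPM (SD, n = 4 each). The ligand gene Il6 averaged 3.06 ± 0.546 CPM in deficient libraries and 2.36 ± 0.774 CPM in wildtype libraries and was not called (adjusted p = 0.161 in edgeR).

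**Figure D5:**
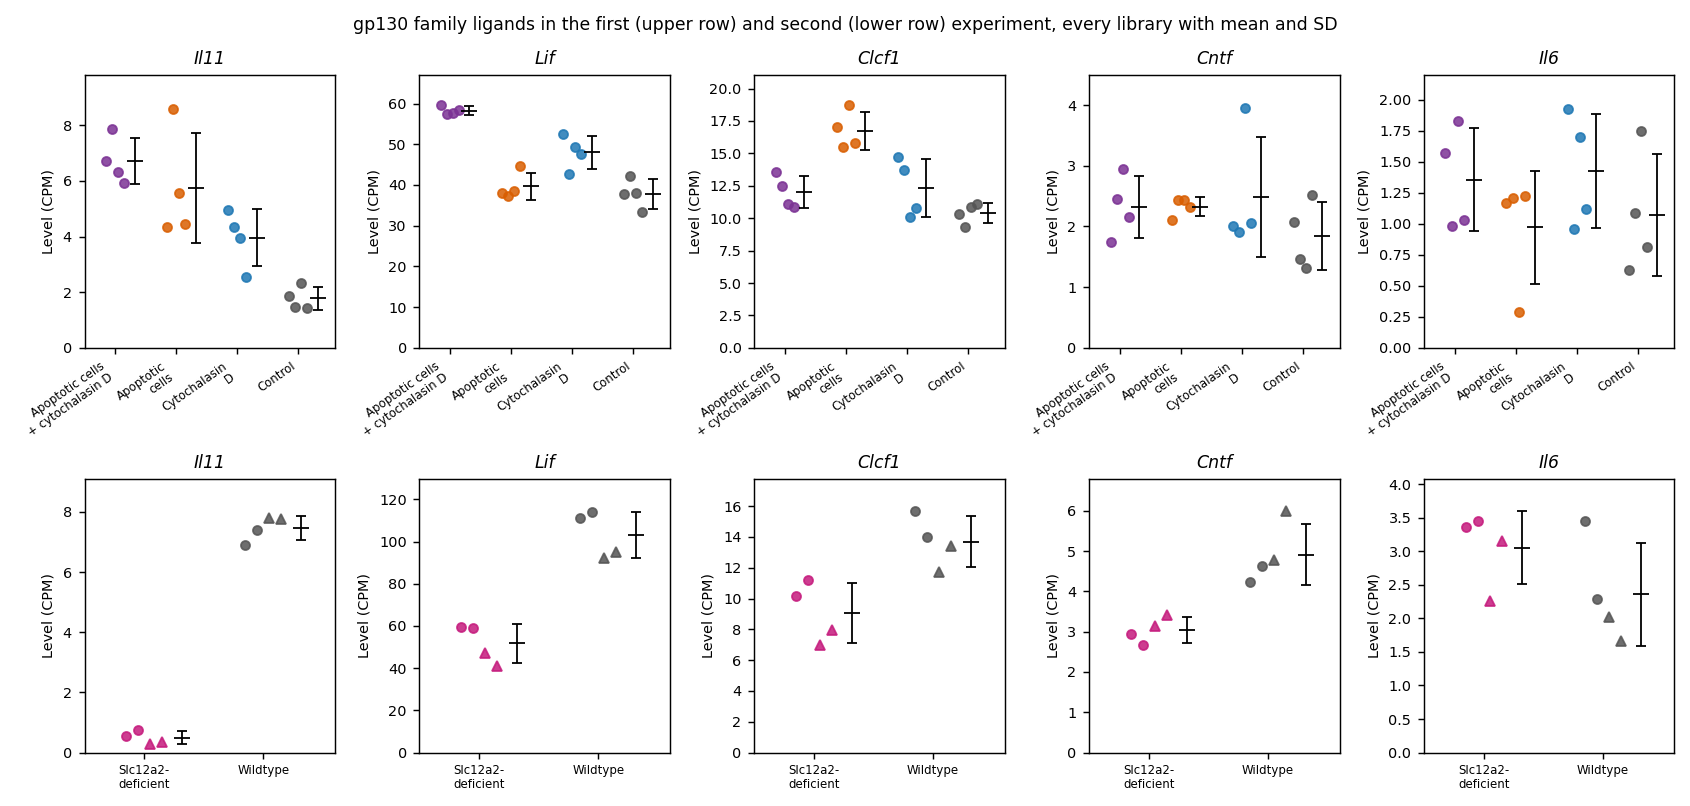
Level of 5 ligand genes of the gp130 family (vertical axes, CPM, starting at 0) in the first experiment (upper row) and the second (lower row; circles for library numbers 9 to 12, triangles for 13 to 16). Points are single libraries and bars the mean and SD of 4 libraries. Il11 is at 0.49 ± 0.215 CPM in deficient and 7.46 ± 0.414 CPM in wildtype libraries, and at 5.74 ± 1.96 CPM with apoptotic cells and 1.77 ± 0.423 CPM in control libraries.

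Of 4 tested other receptors of the gp130 and IL-13 families, 1 was higher and 2 lower in deficient cells. Il4r, whose product can pair with an IL-13 receptor chain, was 1.35-fold higher, with 24 ± 2.13 CPM against 17.8 ± 0.961 CPM (SD, n = 4 each, adjusted p = 0.000222 in edgeR). Il6r was lower at 1.85 ± 0.742 CPM against 2.73 ± 0.366 CPM, and Il31ra at 1.83 ± 0.125 CPM against 2.35 ± 0.0644 CPM. Their calls were lost in 7 and 15 of 17 alternatives. On the list of other cytokine receptors 2 were higher and 8 lower, with Il7r at 0.154 ± 0.0564 CPM in deficient libraries against 6.02 ± 0.549 CPM in wildtype libraries, 37-fold lower (adjusted p = 2.54e-11 in edgeR). The deficient level of Il7r was near the floor, at 16 counts in all, so the size of this ratio is uncertain. Il17ra and Il1rl1, which encode receptors for interleukin-17 and interleukin-33, were 1.77-fold and 1.71-fold lower (1.02e-07 and 2.01e-06). Among growth factor receptors that SOCS proteins are known to damp, 1 was higher and 3 lower, and Pdgfrb was 4.87-fold lower at 1.38 ± 0.472 CPM against 6.71 ± 0.422 CPM (adjusted p = 5.65e-08 in edgeR). The STAT genes Stat2 and Stat5a were 1.44-fold and 1.35-fold lower (edgeR adjusted p of 6.34e-05 and 0.000451). No other SOCS gene passed: Socs4, Socs7 and Cish had edgeR adjusted p of 0.361, 0.274 and 0.192.

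Known STAT3 targets went both ways in the deficient cells, with 5 of 19 higher and 7 lower. Pim1, a kinase gene, had 22.3, 27.6, 26.5 and 25.3 CPM in deficient libraries, against 66.3, 63.5, 68.1 and 65.3 CPM in wildtype libraries (2.58-fold lower, adjusted p = 1.2e-10 in edgeR). Timp1, a metalloprotease inhibitor gene, was 1.95-fold lower at 49.9 ± 2.79 CPM against 97.2 ± 10.9 CPM (SD, n = 4 each, adjusted p = 3e-08 in edgeR). Cebpd, outside the naming rule and added after its values were seen, was 2.53-fold lower at 2.52 ± 0.558 CPM against 6.44 ± 1.1 CPM (adjusted p = 6.37e-06 in edgeR). In contrast, Irf1, an interferon pathway transcription factor gene, was 2.38-fold higher at 18.4 ± 3.09 CPM against 7.76 ± 0.988 CPM (adjusted p = 5.92e-07 in edgeR). The T cell list summed to 32.9 ± 3.4 ppm of counts in deficient libraries and to 38.9 ± 1.87 in wildtype libraries (n = 4 each, exact permutation p = 0.0857), with Lck at 0.0495 ± 0.0578 CPM and 0.0585 ± 0.0681 CPM in the same order and Zap70 at 0 in every library. The 4 list genes that reached 1 CPM in control libraries went both ways. Lat stood at 4.66 ± 0.708 CPM in deficient and 10.8 ± 1.11 CPM in wildtype libraries. Cd28 stood at 1.36 ± 0.202 and 3.92 ± 0.775 CPM in the same order. Tcf7 and Gata3 had higher means in deficient libraries, at 18.5 ± 1.44 against 16.1 ± 0.98 CPM and 8.56 ± 1.07 against 7.6 ± 0.442 CPM.

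Across the 16 libraries of the first experiment, the genes whose log2 CPM followed each member most closely were described by Pearson's r over 8312 named genes with a mean of at least 4 CPM. The libraries share their 4 groups, so much of any r reflects the group pattern. Socs3 was followed most closely by Ovca2 (0.92), Mtcl1 (0.90) and Id3 (0.89). Socs5 was followed by Setd7 (0.97), Lpp (0.97) and the integrin gene Itgb1 (0.96), and Il13ra2 by the lipoprotein lipase gene Lpl (0.98), Prkci (0.97) and Vkorc1l1 (0.96). Il6st was nearest to Amd1 (0.93), Spin1 (0.91) and Nfat5 (0.91), and Stat3 to Scaf4 (0.87), Nr4a3 (0.86) and Acadvl (0.81). Socs6 followed Wdr92 (0.90), Fchsd2 (0.87) and Il13ra2 itself (0.85), the one case where a member was among the nearest genes of another. Osmr had the loosest neighbours, with Tmem39a (0.82), Med31 (0.73) and Cdc40 (0.70).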

How the data were processed

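The deposited values are raw counts of read pairs per gene name, which the authors made with featureCounts 1.5.0 over exons, both ends aligned and no strand option, per the file headers. The submitters' processing notes also list FastQC, STAR and DESeq2, with no versions; libraries were read as 75 bp paired ends, per the labels. The build is not given in the sources used here, hence no coordinates or sequences are printed. The deposited exon length per gene, another kind of value made by the authors, gave RPKM. Exons of the members overlapped no other gene model.

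A blank-named row, 0.0249 to 0.0445% of counts in the first experiment and 1.13 to 1.65% in the second, was left out. No sample column was unused. Each experiment was fitted alone with edgeR 4.0.16 in R 4.3.3 (TMM, filterByExpr with minimum count 10 and minimum total 15, quasi-likelihood test on group, Benjamini-Hochberg over all genes, adjusted p under 0.05). Scripts were tested on simulated data. The labels call replicates biological without saying what was separate, so p-values measure the spread between these libraries. Jurkat cells received 1500 mJ and rested 4 h, per the labels; how long co-culture ran is not given in the sources used here for the first experiment. The members and lists were chosen with earlier results of these data known. From each list, up to 3 called genes per comparison with the smallest adjusted p could be named by rule. The text names some of these, picked after values were seen, plus Cntf, Clcf1 and Cebpd from outside the rule for deficient against wildtype. Icam1, Irf1 and Il1rl1 in the corpse comparisons were added after values were seen, whether or not the rule named them. Called list genes named with values kept their call without each library, with some exceptions. These were Stat5a and Stat6 (cytochalasin D), Il11 and Lif (corpses under the drug), and Il6r and Il31ra (deficient against wildtype). Members whose calls were lost without single libraries are given above. Some listed genes are counted but not reported here by name. Alternatives included DESeq2 1.42.0 and limma-voom (limma 3.58.1). T cell shares used two-sided exact permutation over 70 assignments. Counting floors cover counting error only.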

Additional observations from a re-analysis of the deposited data

Results flagged for a closer look

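Within groups of 4, 5 of 48 gene and group combinations held a library far from the other 3, where chance gives about 5%. These were Socs3 at 16.5 CPM in apoptotic library 3, Stat3 at 76.9 CPM in apoptotic library 4, Il6st at 134 CPM in library 1 of apoptotic cells plus cytochalasin D, Il6st at 147 CPM in deficient library 2, and Lifr at 0.872 CPM in cytochalasin D library 4, where it had 14 counts. The corpse effect differed by drug for 3 genes by the test of the difference itself: -0.65 for Socs3, 0.25 for Il6st and 0.42 for Il13ra2, as log2 differences, all lost without the 3 libraries that stood apart.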

How the results depend on the processing

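Calls of members held in 70 of 76 alternative values for apoptotic cells against control, 63 of 76 for cytochalasin D against control, 57 of 57 for the drug in corpse-fed cells, 35 of 78 for the difference between corpse effects and 68 of 68 for Slc12a2-deficient against wildtype, and none turned sign. At an adjusted p under 0.01, 1 member passed for cytochalasin D against control and 0 for the difference between corpse effects; without the 3 libraries that stood apart, an alternative chosen after seeing the data, 0 passed for that difference. Leaving out single libraries gave 2 to 4 members for cytochalasin D against control and 0 to 4 for the difference.

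The T cell share was higher by 7.16 to 8.58 ppm of counts for apoptotic cells against control without single libraries and by 8.86 to 11.3 for corpses under the drug, each with an exact permutation p of 0.0571, the smallest that 3 against 4 libraries allow; without the 3 libraries that stood apart the differences were 7.16 (0.0571) and 8.82 (0.1).

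The signs that turned were of uncalled values near 0. For apoptotic cells against control, Osmr was -0.0015 with DESeq2, -0.0014 with relative log expression factors, -0.0034 with no filter, -0.00086 with only the 8 compared libraries, -0.027 without the 3 libraries that stood apart, and -0.072 to 0.075 without single libraries. For cytochalasin D against control, Osmr was -0.014 without those 3 and -0.019 to 0.13 without single libraries, and Socs3 -0.017 to 0.16. For corpses under the drug, Socs3 was 0.14 without those 3 and -0.11 to 0.082 without single libraries, and Il13ra2 -0.062 and -0.04 to 0.11. For deficient against wildtype, Osmr was -0.089 to 0.024.

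Whether replicate numbers pair the libraries of the first experiment was not tested. Over 24 same-numbered pairs r was -0.06 to 0.23, with 3 over 0.1, and 7 of 16 libraries correlated best with their own number. With a replicate block the difference for Socs3 lost its call (adjusted p = 0.0503 in edgeR), leaving 2 members; it changed no other member's call. The Il6st difference was lost with the length trend removed (0.0745) and the Il13ra2 difference in a robust fit (0.0703), and Stat3 for apoptotic cells against control with no filter (0.0553); the cause was not tested. Log2 fold change and gene length correlated across genes at a Spearman rho of -0.26 for apoptotic cells against control. The rho was 0.20 for the difference between corpse effects, 0.14 for the drug in corpse-fed cells and -0.05 to 0.01 for the other comparisons. Counts limit Lifr in all groups.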
